A study of Mus musculus with 30 samples.

Results

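The genes described here are the nuclear-encoded subunits of the mitochondrial respiratory chain and of ATP synthase. They were chosen by a rule on their names, set with earlier results of these data known. Every protein-coding mouse gene was taken whose symbol begins with Nduf followed by a, b, c, s or v and a digit, with Uqcr, with Cox and a digit from 4 to 8, or with Atp5, together with Sdha, Sdhb, Sdhc and Sdhd. The rule found 85 of the 55401 genes in the count tables. By symbol alone, 37 were counted under complex I, 4 under complex II, 8 under complex III, 18 under complex IV and 18 under complex V. All counts by complex below follow these names, which need not match the complex a protein sits in. The 85 genes carry 84 symbols, since Atp5o names 2 genes. Ndufab1, Cyc1 and Cycs, which also serve the chain, fall outside the naming rule.

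The study measured nuclear RNA of mouse embryonic stem cells before and after rapid loss of SRCAP, the ATPase that places the histone variant H2A.Z. All cells were grown in serum with LIF and derive from the CGR8 line. SYAT cells carry YPet and an auxin-inducible degron (AID) on both SRCAP alleles and express the receptor OsTir1, so that auxin (IAA, 500 µM) removes the SRCAP protein. They were compared after 2, 4, 6 and 8 h of IAA with SYAT control cells kept in the IAA antagonist auxinole. Parental CGR8 cells, which lack the degron, were compared after 4 h of IAA with their own control. Early G1 (EG1) and late G1 (LG1) SYAT cells were sorted by Hoechst and an mCherry mitotic degron, with 1 h of IAA or control treatment. In the remaining groups, SYAT cells of 1 clone each were given doxycycline for 24 h to express wild-type SRCAP (wtSRCAP) or catalytically dead SRCAP (cdSRCAP) fused to mCherry, were sorted for mCherry and received IAA for 4 h or control treatment. Each of the 15 groups had 2 libraries, called biological duplicates by the submitters, and values of 2 libraries give only a coarse estimate of spread.

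The respiratory chain passes electrons from NADH (complex I) and succinate (complex II) through complex III to complex IV, where oxygen is reduced, and the proton gradient built along the way drives complex V, the ATP synthase. Most of its subunits are encoded in the nucleus and imported into mitochondria, while a small core is encoded by mitochondrial DNA. The nuclear genes are broadly expressed housekeeping genes. NRF1, GABP, YY1 and the estrogen-related receptors are known to bind many of their promoters, and several complex IV subunits have tissue-restricted isoforms found in heart, skeletal muscle, lung or testis.

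Before the levels, the promoters of 4 members are shown, because the intronic reads of these 4 genes were among those that fell most in LG1 cells after IAA. Each sequence runs from 250 bases before to 50 bases after the RefSeq gene start on GRCm38.p6, read along the gene's strand. Capitals mark the letters of a searched motif. Ndufa9, an accessory subunit of complex I, lies at chr6:126849095-126849394 on the minus strand, and its capitals mark the YY1 motif. Ndufb3, another accessory subunit, lies at chr1:58586147-58586446 on the plus strand and held none of the searched motifs. Ndufa8, an accessory subunit facing the intermembrane space, lies at chr2:36049289-36049588 on the minus strand, with the NRF1 motif in capitals. Sdhd, a membrane anchor of complex II, lies at chr9:50603800-50604099 on the minus strand, with an NRF1 motif and then the reverse complement of the ERR motif in capitals.
Ndufa9: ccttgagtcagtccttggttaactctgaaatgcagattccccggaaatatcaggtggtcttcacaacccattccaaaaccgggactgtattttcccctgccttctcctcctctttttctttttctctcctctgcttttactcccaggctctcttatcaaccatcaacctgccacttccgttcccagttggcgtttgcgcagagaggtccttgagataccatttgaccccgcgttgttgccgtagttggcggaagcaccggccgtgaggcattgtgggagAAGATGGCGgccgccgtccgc
Ndufb3: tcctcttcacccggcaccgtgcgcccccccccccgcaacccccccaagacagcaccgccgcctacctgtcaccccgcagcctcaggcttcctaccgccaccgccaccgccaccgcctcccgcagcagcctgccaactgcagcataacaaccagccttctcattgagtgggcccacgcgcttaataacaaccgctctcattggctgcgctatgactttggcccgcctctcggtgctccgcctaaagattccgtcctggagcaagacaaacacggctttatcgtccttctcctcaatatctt
Ndufa8: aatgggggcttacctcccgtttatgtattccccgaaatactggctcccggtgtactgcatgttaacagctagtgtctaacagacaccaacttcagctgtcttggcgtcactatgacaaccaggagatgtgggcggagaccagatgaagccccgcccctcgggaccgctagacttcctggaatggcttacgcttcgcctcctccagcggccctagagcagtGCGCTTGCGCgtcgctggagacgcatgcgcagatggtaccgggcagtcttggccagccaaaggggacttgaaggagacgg
Sdhd: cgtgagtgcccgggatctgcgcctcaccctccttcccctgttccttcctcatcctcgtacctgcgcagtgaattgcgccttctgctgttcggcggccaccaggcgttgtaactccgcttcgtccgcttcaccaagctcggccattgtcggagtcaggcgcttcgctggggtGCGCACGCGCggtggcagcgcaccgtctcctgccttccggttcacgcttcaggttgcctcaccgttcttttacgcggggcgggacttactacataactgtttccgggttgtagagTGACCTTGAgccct

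Of the 85 members, 66 matched a promoter in the RefSeq set of 27025. The motifs were searched on both strands. The NRF1 motif (GCGCA and GCGC with any 1 base between them) was present in 16 of the 66 (24.2%), against 4.78% of all promoters. The YY1 motif AAGATGGCG was present in 6 (9.09%), against 1.49%. The cyclic AMP response element TGACGTCA was found in 4 (6.06%), against 1.88%, and the ERR motif TCAAGGTCA in 2 (3.03%), against 0.407%. The GABP motif CCGGAAGT (5 members, 7.58%, against 4%), the NF-Y motif CCAATCAG (3 members, 4.55%, against 4.31%) and the TATA motif TATAAA (7 members, 10.6%, against 14.2%) were nearer to their shares among all promoters. The members' promoters held a median of 19 CpG dinucleotides and 57.2% GC, against 7 and 52.7% over all promoters, so motifs rich in CpG had more chances to occur in them. A match describes letters only and no binding was measured.

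Exon reads were deep in every library, with 45617992 to 60214521 counts in the CGR8 table, 17540823 to 22873893 in the SYAT time course, 19740778 to 26672402 in the sorted G1 cells and 12236493 to 26369773 in the wtSRCAP and cdSRCAP cells. The members took 0.982 to 1.08% of exon counts in CGR8, 0.725 to 0.835% in the SYAT time course, 0.622 to 0.695% in sorted cells and 0.427 to 0.777% in wtSRCAP and cdSRCAP cells. Pluripotency genes were present throughout, at 0.207 to 0.544% of exon counts. IAA removes the SRCAP protein, so Srcap RNA is no check of the treatment. Transcripts of mitochondrial DNA were scarce in the second 6 h library, the first CGR8 control and the first wtSRCAP library with IAA, and the main values that rest on these are also given without them. The tables were counted separately, so levels are set side by side here and tested only within a table. In bulk RNA, fewer cells of one kind and less RNA per cell cannot be told apart. The intron columns were not built alike. In CGR8, LG1, wtSRCAP and cdSRCAP libraries 0.0397 to 0.0894% of single-exon genes with exon reads had intron counts. This share was 46.9 to 49.8% in the time course and 40.4 to 44.3% in EG1 libraries, so those columns also hold exonic reads. For these libraries the exon column was taken off the intron column, a step chosen after the data had been seen. Genes whose difference was negative in any of the libraries were set aside, which left 56 members in the time course and 58 in EG1. Cox6b1 was set aside, with 747 intron and 1771 exon counts in the first SYAT control, so the column did not hold all exonic reads of every gene.

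In SYAT control cells the members spanned a wide range of levels, in CPM (counts per 1000000 counts of the library) per kilobase of exon. ATP synthase headed the order. Atp5b, the catalytic beta subunit, stood at 353.9 and 342.9 in the 2 control libraries, and Atp5a1, the alpha subunit, at 321.3 and 317.3. They were followed by complex IV subunits. Cox4i1, the regulatory subunit 4, was at 214.4 and 207.1, Cox6a1 at 178.7 and 177.9, Cox8a at 147.1 and 165.7, and Cox6b1 at 126.6 and 129.2. Among these, neighbours such as Cox8a and Cox6b1 kept their order in both libraries, but Cox6b1 and the complex III subunit Uqcr10 (121.9 and 117.1) lay close together. Of all members, 24 reached 50 and 69 reached 10, while 4 stayed under 1, and the median was 28.6.

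Complex III had the highest median level, 55.8, against 35.6 for complex II, 34.4 for complex V, 29.2 for complex IV and 24.6 for complex I. Within complex II, Sdhd was at 60.4 and 61.4 and Sdha, the flavoprotein that oxidises succinate, at 49.2 and 49.4, while the iron-sulfur subunit Sdhb (23.2 and 20.6) and the anchor Sdhc (17.2 and 15.8) were lower in both libraries. The core subunits Uqcrc1 (62.2 and 59.1) and Uqcrc2 (31.4 and 29.8) of complex III also differed from each other in both libraries. In complex I the highest level was that of Ndufa2 (70.8 and 62.5) and the lowest that of Ndufb2 (1.78 and 1.56), whose value depends on a union of exons that may be longer than the transcript used. Ndufs1, the largest subunit of the electron-input arm, was at 12.8 and 12.7.

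The isoform pairs were sharply graded. The broadly expressed form exceeded the tissue-restricted one in both control libraries of every pair compared. Cox4i1 exceeded Cox4i2, the lung form, at 1.73 and 0.629. Cox7a2 (69 and 65.9) exceeded Cox7a1, the heart and muscle form, at 5.11 and 4.48. Cox8b, another muscle form, stood at 1.26 and 1.03, and Cox8c, the testis form, at 0.221 and 0.18. Cox6a2, the muscle form of subunit 6a, had no count in either control library. The testis form Cox6b2 was the least quiet of these, at 10.4 and 13.8 against 126.6 and 129.2 for Cox6b1. Cox7b2 was at 0.0934 and 0.305, against 55.6 and 61.9 for Cox7b. The 3 genes for subunit c of ATP synthase, which encode the same mature protein, were ordered Atp5g3 (93.4 and 96.6), then Atp5g1 (28.3 and 28.2), then Atp5g2 (22.6 and 25.4), and the last pair lay close together. Several of these genes have processed pseudogenes that can share their reads, so levels within gene families carry that uncertainty.

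**Figure D1:**
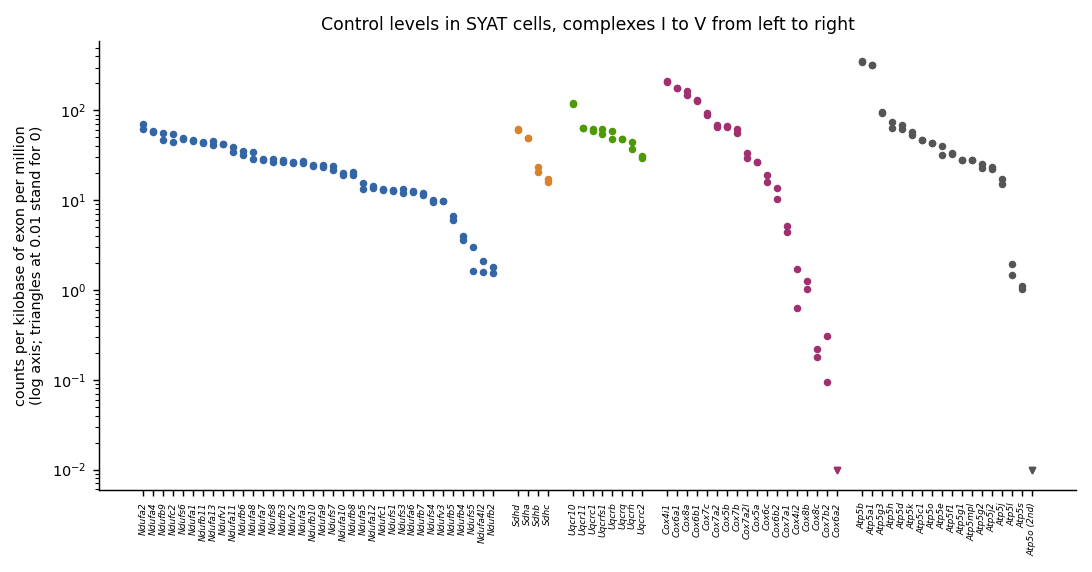
Levels of the members, without 1 that is not reported here, in the 2 SYAT control libraries, in CPM per kilobase of exon on a log axis, grouped by complex. Each point is 1 library and triangles at 0.01 mark a count of 0. Atp5b and Atp5a1 sit above 300, most members between 10 and 100, and the tissue-restricted isoforms named in the text other than Cox6b2 near or below 5.

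In exon reads, loss of SRCAP left no member past the threshold in any comparison of the main fits. The comparisons asked which nuclear transcripts follow SRCAP loss over time, in early and late G1 and when wtSRCAP or cdSRCAP was supplied. A gene was called when its log2 fold change exceeded 0.5 in size with an adjusted p under 0.05 in edgeR's quasi-likelihood test, or, for the 1 h comparisons, 0.25 with an unadjusted p under 0.05. Among 80 members tested in the SYAT time course, 0 were called after 2, 4, 6 or 8 h and 0 in the mean of these times against control. Over all genes edgeR called 0% at 2 h, 0% at 4 h, 0.0677% at 6 h, 0.00521% at 8 h and 1.21% in the mean, so few calls were made at single times among any genes. At an unadjusted p under 0.05, members higher and lower numbered 0 and 0 at 2 h, 0 and 0 at 4 h, 3 and 2 at 6 h, 0 and 2 at 8 h, and 0 and 1 in the mean. Over all genes the shares higher and lower at that level were 1.37% and 2.55% at 2 h, 3.09% and 6% at 4 h, 7.93% and 8.21% at 6 h, 5.13% and 8.44% at 8 h, and 4.82% and 9.2% in the mean. A test for any change over the 4 times gave an unadjusted p under 0.05 for 0 of 80 members, against 7.63% of all genes, and the lowest p was that of Ndufa9 (0.0753 in edgeR).

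The main catalytic subunits show how small the exon changes were. Atp5b had 1499 and 1453 CPM in control, 1555 and 1530 at 2 h, 1593 and 1503 at 4 h, 1565 and 1783 at 6 h, and 1736 and 1395 at 8 h. Its mean log2 fold change over the 4 times was 0.10 ± 0.11 (SE, 2 libraries per group, edgeR adjusted p = 0.743). Sdha went from 202.9 and 203.9 CPM in control to 206.0 and 173.2 at 8 h, and its mean change was 0.00 ± 0.10 (edgeR adjusted p = 0.996). In both genes the control values lay within the range of the treated ones. Ndufs1 stood at 103.9 and 102.3 CPM in control, 101.6 and 107.7 at 2 h and 97.9 and 97.3 at 8 h, with a mean change of -0.01 ± 0.12 (edgeR adjusted p = 0.993). Changes smaller than these SEs could not be seen with 2 libraries per group. Larger ones could also miss the threshold after adjustment over all genes, as Ndufa9 did at 8 h (-0.41 ± 0.15, SE, edgeR adjusted p = 0.26).

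By complex, complex I leaned below 0 at 8 h and complexes IV and V did not. At 8 h, when 46.8% of all genes were below 0, 33 of the 37 complex I genes had a log2 fold change below 0, with a median of -0.14, and all 4 complex II genes and 7 of 8 complex III genes were also below 0. At the same time complex IV was split evenly, with 7 of 14 on either side, and complex V had 9 of 17 above 0 with a median of 0.00. None of these genes was called in the main fit. At 6 h complex I had 22 of 37 above 0, and the 8 h median of all members ran from -0.22 without the first 8 h library to 0.04 without the second. The medians of all members were -0.01 at 2 h, -0.04 at 4 h, 0.13 at 6 h, -0.08 at 8 h and -0.01 in the mean, against 0.02, 0.01 and 0.03 over all genes at 4, 6 and 8 h. The lean of complex I at 8 h was shared by Ndufa9, Ndufb3 and Ndufa10, the 3 members with the lowest p in that direction.

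Ndufa9 had the clearest downward course in exon reads. It had 52.5 and 49.3 CPM in control, 51.7 and 51.3 at 2 h, 45.6 and 41.96 at 4 h, 42.4 and 45.5 at 6 h, and 42.4 and 34.2 at 8 h. From 4 h on, both libraries at each time lay below both controls. Its log2 fold change at 8 h was -0.41 ± 0.15 (SE, edgeR unadjusted p = 0.0182, adjusted p = 0.26). Ndufb3 stood at 21.3 and 20.3 CPM in control and at 15.4 and 12.2 at 8 h, which did not overlap, but its second 6 h library was at 25.7. Its log2 fold change at 8 h was -0.59 ± 0.23 (SE, edgeR unadjusted p = 0.0256, adjusted p = 0.289). With the replicate block and without the second 6 h library, Ndufb3 was at -0.61 at 8 h and was called. Ndufa10, an accessory subunit with a kinase-like fold, changed by -0.27 at 8 h (edgeR unadjusted p = 0.0543). On the other side at 8 h, Cox6b2 had a log2 fold change of 0.39, Atp5l (subunit g) 0.33 and Ndufa4l2 0.60, with none called.

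At 2 h the lowest p values belonged to Cox6b2 (log2 fold change 0.29), Atp5mpl (0.14) and Cox8a (0.09) on the higher side and to Ndufc1 (-0.17), Ndufa8 (-0.26) and Ndufs5 (-0.39) on the lower. At 4 h they were Atp5j (0.16), Cox7c (0.15) and Atp5g3 (0.15), and Ndufa8 (-0.52), Ndufa10 (-0.19) and Ndufa9 (-0.22). None of these had an unadjusted p under 0.05 in edgeR's main fits. With the replicate block and without the second 6 h library, Ndufa8 was at -0.52 at 4 h and was called. At 6 h Ndufa7 (0.49 ± 0.19), Cox6a1 (0.89 ± 0.37) and Atp5g1 (0.50) did so on the higher side, and Ndufs5 (-1.54 ± 0.47) and Ndufa3 (-0.36) on the lower, with adjusted p values of 0.255 for Ndufa7, 0.276 for Cox6a1 and 0.167 for Ndufs5. Ndufs5, a small accessory subunit of complex I, rested on few reads, with 28 and 62 counts in control and 15 and 8 at 6 h.

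**Figure D2:**
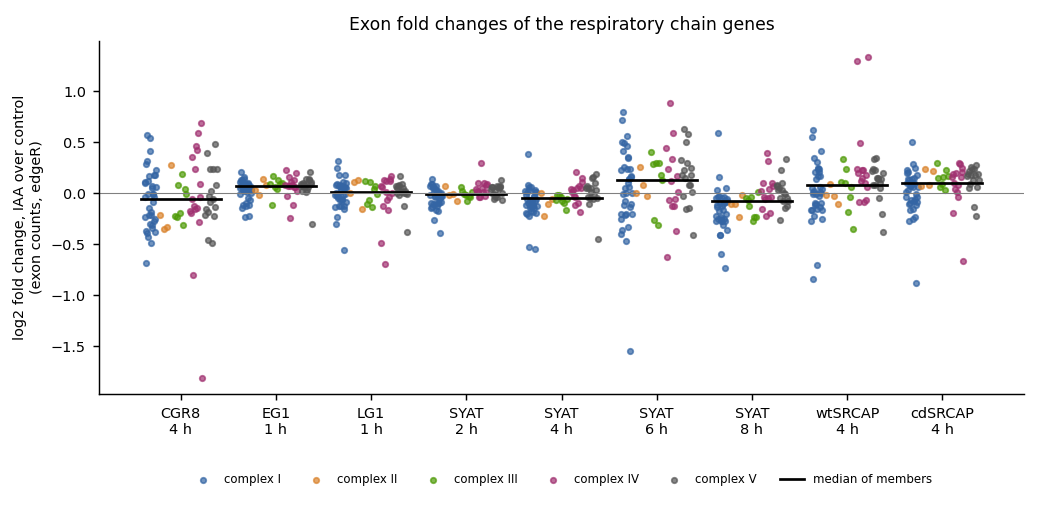
Exon log2 fold change of each member in each comparison with IAA, grouped by complex. Each point is 1 member, coloured by complex, horizontal lines mark the median of all members, and 0 members passed the threshold. Most members sit within 0.5 of 0, and wide scatter is seen in CGR8, at 6 h and in wtSRCAP cells.

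The changes at 6 h turned on 1 library. In the second 6 h library the 13 genes encoded by mitochondrial DNA took 0.28% of exon counts, against 1.07 to 1.27% in the other SYAT libraries, and the members took 0.835%, the highest share of the time course. Compared with its partner on log2(CPM + 0.5), 30 of 80 members were more than 0.5 higher and 8 more than 0.5 lower, where 16.3% and 20% of all genes were. Cox6a1 was at 125.4 and 124.9 CPM in control, 123.7 and 120.1 at 2 h, 129.5 and 114.2 at 4 h, 115.3 and 347.8 at 6 h, and 122.7 and 118.1 at 8 h. It was thus high in the second 6 h library and level in all others. Cox7b moved the opposite way in that library, at 70.4 and 39.9 CPM at 6 h against 67.5 and 75.1 in control. Without the second 6 h library Cox6a1 was at -0.12, Ndufa7 at 0.11 and Ndufs5 at -1.19, with unadjusted p values of 0.33, 0.349 and 0.0589 in edgeR. The members' median at 6 h was then -0.06 in place of 0.13 with 0 called, and without the first 6 h library edgeR called 25 members, against 15.4% of all genes.

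A library of parental CGR8 cells stood apart in a like way. In the first CGR8 control library mitochondrial transcripts took 0.45% of exon counts, and the first wtSRCAP library with IAA held 0.188%. In CGR8 control 1, 16 of 83 members were more than 0.5 higher than in control 2 and 4 more than 0.5 lower, where 9.05% and 15.2% of all genes were. In wtSRCAP with IAA 1, 5 of 81 members were higher than in its partner by that much and 44 lower, where 21.5% and 26% of all genes were. Same-numbered wtSRCAP and cdSRCAP libraries deviated together (r from 0.607 to 0.715 in exons). Members took a lower share of counts in those numbered 1 in every group, as given below. The values of this library, and its correlations, therefore also hold that difference between replicate numbers. Across 80 members the deviations of the second 6 h library correlated with those of CGR8 control 1 at r = 0.668 and with those of wtSRCAP with IAA 1 at r = 0.704, and the latter pair at r = 0.449. Over 17683 genes these values were 0.45, 0.379 and 0.168. Members with GC-rich exons tended to be higher in all 3 libraries (r = 0.383, 0.353 and 0.513), as did all genes (0.426, 0.255 and 0.32). These are descriptions across genes, which are not independent replicates, and the part of this difference in the results was not tested.

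In parental CGR8 cells, where IAA has no degron to act on, 0 of 83 members were called after 4 h, against 0.00988% of all genes. At an unadjusted p under 0.05, 4 members were higher and 3 lower, where the shares over all genes were 5.04% and 4.12%. Cox7b had 82.5 and 94.7 CPM in control and 111.8 and 155.7 with IAA, which did not overlap (log2 fold change 0.59 ± 0.18, SE, edgeR unadjusted p = 0.00939, adjusted p = 0.54). Cox6a1 went from 191.9 and 103.3 CPM to 91.4 and 78.0, so the first control library stood far above the rest (-0.80 ± 0.26, SE, edgeR unadjusted p = 0.0131, adjusted p = 0.54). Ndufa2, which lies opposite Tmco6, was at 91.6 and 53.8 CPM in control and 48.1 and 42.3 with IAA (-0.69, edgeR unadjusted p = 0.0172). Cox7a2 (0.42), Atp5c1 (0.39) and Ndufb7 (-0.49) came next. The exon reads of Ndufa9 went from 104.3 and 97.3 to 91.6 and 91.3 CPM (-0.14, edgeR adjusted p = 0.765) and those of Ndufb3 from 24.7 and 25.7 to 21.2 and 19.6 CPM (-0.30, edgeR adjusted p = 0.586). In both genes the groups did not overlap, so the parental cells leaned the way the time course did, and the difference between the lines was not tested. The members' median was -0.05, and it was 0.08 with 0 called without the first control library. Cox7b was then at 0.51, Cox6a1 at -0.27 and Ndufa2 at -0.24, with adjusted p values of 0.192, 0.657 and 0.767 in edgeR. Without the second control library, which leaves the library that stands apart as the only control, edgeR called 18 members, against 10.9% of all genes.

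**Figure D3:**
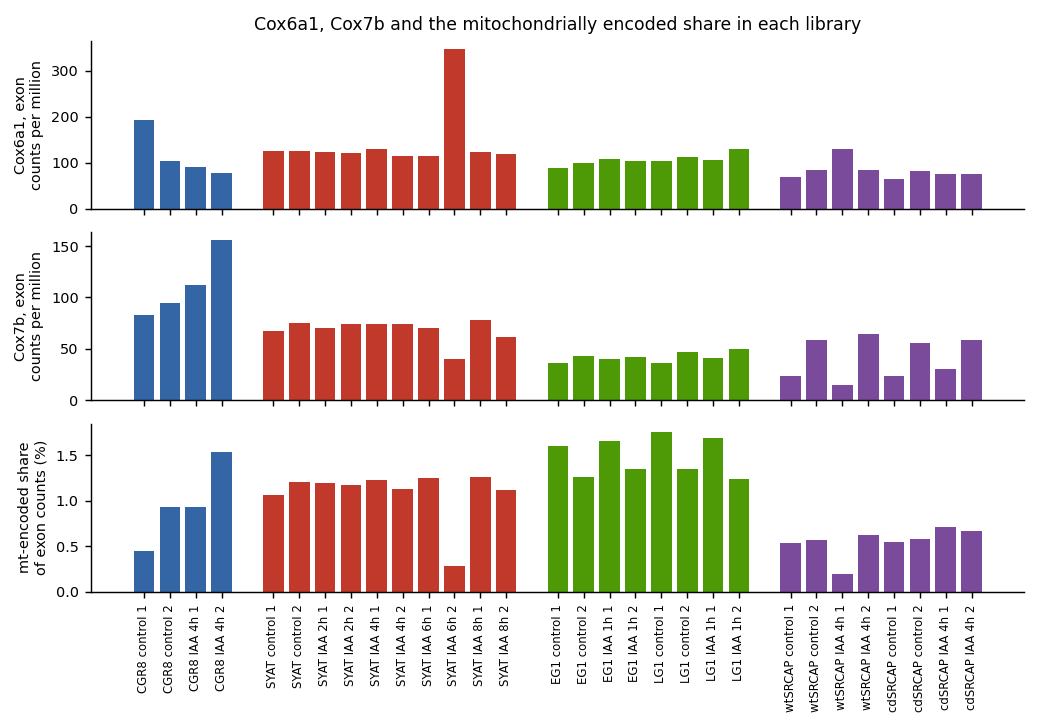
Exon CPM of Cox6a1 (top) and Cox7b (middle) and the percent of exon counts from mitochondrially encoded genes (bottom), with 1 bar for each of the 30 libraries, coloured by count table. Cox6a1 reaches 347.8 in the second 6 h library and 191.9 in the first CGR8 control, and the mitochondrial share there is 0.28% and 0.45%.

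In sorted cells after 1 h of IAA the exon reads of the members hardly moved. In EG1, 0 of 81 members passed the 1 h threshold, against 1.22% of all genes, and in LG1 0 of 81, against 1.02%. The members' median was 0.07 in EG1, with 65 above 0 and 16 below where 49.9% of all genes were below, and 0.01 in LG1. In EG1 the lowest p values belonged to Ndufb11 (0.16), Atp5l (0.21) and Cox6a1 (0.16), and to Ndufb2 (-0.23), Atp5s (-0.30) and Ndufa6 (-0.11). In LG1 they belonged to Ndufs7 (0.18), Ndufa5 (0.32) and Ndufb10 (0.18), and to Ndufa12 (-0.30), Ndufs5 (-0.55) and Cox4i2 (-0.48). Fitted with replicate pairs as a block, 2 members passed in LG1, Ndufa12 (-0.30, edgeR unadjusted p = 0.00853) and Ndufa5 (0.33, edgeR unadjusted p = 0.0416), against 4.2% of all genes, with adjusted p values of 0.592 and 0.728. Between LG1 and EG1 control cells 68 of 81 members were higher in LG1 and 13 lower, where 50.2% of all genes were lower, with a median of 0.07, and 0 were called, as were 0% of all genes. The difference between the 2 IAA effects was called for 0 members and for 0% of all genes.

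In LG1 introns 13 members fell by the unadjusted 1 h threshold. Intronic reads come from RNA not yet spliced and follow ongoing transcription more closely than exonic reads do. Of 80 members tested, 13 were lower and 1 was higher by the 1 h threshold, where 2.7% of all genes were lower and 1.24% higher (3.94% in either direction). Log2 fold changes were below 0 for 58 members and above 0 for 18, with a median of -0.23, while 41.5% of all genes were below 0 and their median was 0.00. Genes without intron reads in LG1 entered this fit through their EG1 counts and stayed at 0, among them Ndufs1, Ndufb8, Ndufb9 and Atp5o. The shares over all genes include such genes and so understate those among genes with LG1 intron reads. The adjusted p was 1.0 for every member in edgeR, so the calls rest on the unadjusted threshold that the study used for 1 h. Fitted with replicate pairs as a block, 25 members were lower and 1 higher, against 9.02% of all genes in either direction. When LG1 libraries were fitted alone, 9 of 70 were lower and 0 higher, where 1.97% of all genes were lower, and with the block as well 16 were lower, against 5.77%.

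Complex I supplied 8 of the 13. Ndufa9 had 38.8 and 50.8 intronic CPM in LG1 control and 18.8 and 27.3 with IAA, from 306 and 308 counts and 159 and 147 counts. Its groups did not overlap, and its log2 fold change was -0.96 ± 0.27 (SE, edgeR unadjusted p = 0.00911). Ndufb3 went from 11.4 and 10.1 CPM to 4.02 and 6.12, from 90 and 61 counts to 34 and 33. Both treated libraries were below both controls, with a log2 fold change of -1.10 ± 0.27 (SE, edgeR unadjusted p = 0.00428). Ndufa8 (25.7 and 23.6 to 13.02 and 16.1 CPM), Ndufs7, an iron-sulfur core subunit next to the quinone site (17.9 and 21.1 to 10.5 and 13.5), and Ndufa10 (77.8 and 92.1 to 54.3 and 62.3) showed the same separation. Their log2 fold changes were -0.76 ± 0.22 for Ndufa8, -0.70 ± 0.22 for Ndufs7 and -0.54 ± 0.17 for Ndufa10. Ndufb6 (-0.56), Ndufv1, the NADH-binding subunit (-0.79), and Ndufa5 (-0.58) completed the set, and of the 7 core subunits of the peripheral arm 6 were below 0 and 2 called. The core subunit Ndufs1 had no intron count in any LG1 library. Ndufa9 overlaps the antisense gene 1700018A23Rik, Ndufb6 the antisense gene Smim27 and Ndufa10 the same-strand Mir6900. The library kit keeps strand, but the strand setting of the counting was not given in the sources used here.

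Complex II was the other group with several members. Sdhd went from 28.9 and 28.4 intronic CPM in LG1 control to 15.3 and 18.6 with IAA, with no overlap (-0.76 ± 0.24, SE, edgeR unadjusted p = 0.0153). Sdhc (-0.71, edgeR unadjusted p = 0.0215) and Sdhb (-0.52, edgeR unadjusted p = 0.0391) also passed, so 3 of 4 complex II genes did, while Sdha was at 0.01 (edgeR unadjusted p = 0.953). Without the block, Uqcrc2 alone passed in complex III (-0.61, edgeR unadjusted p = 0.0345), a gene with Pdzd9 on the other strand. In complex IV Cox6b1 alone passed, at 21.7 and 26.7 CPM in control and 9.70 and 14.3 with IAA (-1.02 ± 0.28, SE, edgeR unadjusted p = 0.00799). No ATP synthase gene passed without the block, and Atp5b was at 0.04 (edgeR unadjusted p = 0.89). With the block, Uqcrb (-0.47) and Uqcrc1 (-0.34) of complex III, Cox6a1 (-0.51) of complex IV and the ATP synthase genes Atp5e (-1.11), Atp5mpl (-0.43), Atp5h (-0.42) and Atp5j (-0.40) passed as well, and DESeq2 without the block also called Atp5e. The 1 member that passed on the higher side, Ndufb7, had 2 and 1 counts in control and 6 and 5 with IAA. Leaving out single LG1 libraries left between 6 and 16 members called, and each fit then held 1 group with a single library.

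The exon reads of the same genes did not move with their introns after 1 h. Ndufa9 had 45.0 and 57.7 exonic CPM in LG1 control and 42.2 and 52.0 with IAA, which overlapped (-0.12, edgeR unadjusted p = 0.514). Ndufb3 had 12.8 and 15.02 CPM and 11.6 and 17.6 CPM, which overlapped as well (0.07, edgeR unadjusted p = 0.751). Ndufv1, one of the 13, was at 0.05 in exon reads (edgeR unadjusted p = 0.815). Intron depth was lower than exon depth, with totals of 6299539 and 5076909 intron counts in LG1 control and 7724200 and 4520810 with IAA. The members' own share of intron counts was 0.258% and 0.265% in control and 0.189% and 0.242% with IAA. Promoters were matched for 11 of the 13 genes, and of these 3 held the NRF1 motif, 2 the YY1 motif, 1 each the cyclic AMP, ERR and TATA motifs, and 0 the GABP or NF-Y motif.

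**Figure D4:**
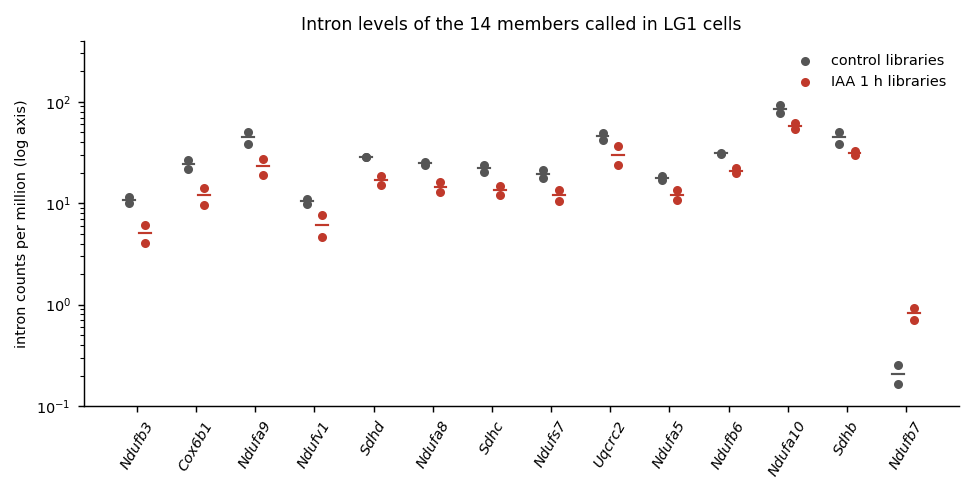
Intronic CPM in LG1 cells of the 14 members past the 1 h threshold, in the 2 control and the 2 IAA libraries, on a log axis. Each point is 1 library and each short line the group mean. In each of the 13 lower genes both IAA libraries lie below both controls.

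For EG1 cells and the time course the exon column was taken off the intron column before the same test. In EG1, 3 of 56 members were then lower and 0 higher, against 3.2% of all genes lower and 4.16% in either direction. Ndufa9 went from 53.6 and 82.9 CPM in EG1 control to 32.9 and 39.3 with IAA, without overlap (-0.92 ± 0.29, SE, edgeR unadjusted p = 0.0146, adjusted p = 0.926). Ndufa10 went from 104.3 and 119.4 to 80.7 and 78.5 (-0.49, edgeR unadjusted p = 0.0463), and Ndufs8, an iron-sulfur core subunit, changed by -0.91 (edgeR unadjusted p = 0.0378). Ndufb3 was at 15.4 and 14.5 and then at 10.4 and 7.96 CPM (-0.70, edgeR unadjusted p = 0.0719), so its groups did not overlap but it missed the threshold. With the replicate block 6 members were lower and 3 higher, against 17.4% of all genes. The EG1 intron column as deposited gave 1 call, Ndufs4 (-1.52 ± 0.58, SE, edgeR unadjusted p = 0.0327), against 2.28% of all genes. It had 1616 and 580 counts in control and 437 and 127 with IAA, so libraries of the same group differed widely, and with EG1 libraries fitted alone the unadjusted p was 0.0906 in edgeR. EG1 and LG1 effects on introns were not compared with each other, because their columns hold different reads.

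Over the time course the intronic part of Ndufb3 and Ndufa9 was lower at every time. Ndufb3 was at 24.0 and 29.5 CPM in SYAT control, 7.31 and 9.69 at 2 h, 10.3 and 9.09 at 4 h, 12.3 and 11.9 at 6 h, and 14.5 and 14.2 at 8 h. In CPM no treated library overlapped the controls, and the lowest values were those at 2 h. These values are small differences between larger counts. The intron column of Ndufb3 held 479 and 583 counts in control and its exon column 421 and 491. At 8 h they held 349 and 376 and 315 and 296. The library totals left after this step, which set the CPM scale, ran from 2075497 to 6332369 counts. The log2 fold changes were -1.64, -1.47, -1.15 and -0.90 in order of time, and the mean was -1.29 ± 0.21 (SE, edgeR adjusted p = 0.0259). This was the 1 call among 55 members, against 2.11% of all genes. It was lost, and 0 members were called, when either control library, either 2 h library or the second 4 h library was left out. Ndufa9 had 83.5 and 90.2 CPM in control, 37.3 and 47.8 at 2 h, 62.0 and 50.5 at 4 h, 49.6 and 62.8 at 6 h, and 60.7 and 48.2 at 8 h. Again no treated library reached the controls in CPM, and the mean log2 fold change was -0.74 ± 0.17 (SE, edgeR adjusted p = 0.0535).

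The other members leaned the same way without passing the threshold. Only 55 members had no negative difference and passed the filter, so the other members are not described by this step. Of the 55, 46 were below 0 at 2 h, 40 at 4 h, 41 at 6 h, 44 at 8 h and 45 in the mean, while 50.8%, 51.9%, 50.5%, 51.6% and 51.7% of all genes were. These comparisons share their control libraries, so they are not separate evidence of a direction. The medians were -0.22 at 2 h, -0.14 at 4 h, -0.24 at 6 h, -0.14 at 8 h and -0.26 in the mean, against -0.02 over all genes in the mean. At an unadjusted p under 0.05, 0 members were higher and 9 lower in the mean, where 12.1% of all genes were lower, so the count of members reaching that level was not far from the share over all genes. Ndufa12 (-0.40), Ndufv2 (-0.40), Uqcrc2 (-0.34), Ndufa1 (-0.84) and Uqcrb (-0.57) were among the 9. Sdhd (-0.09, edgeR unadjusted p = 0.672) and Ndufs7 (-0.29, edgeR unadjusted p = 0.299), which were lower in LG1 introns, were not.

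**Figure D5:**
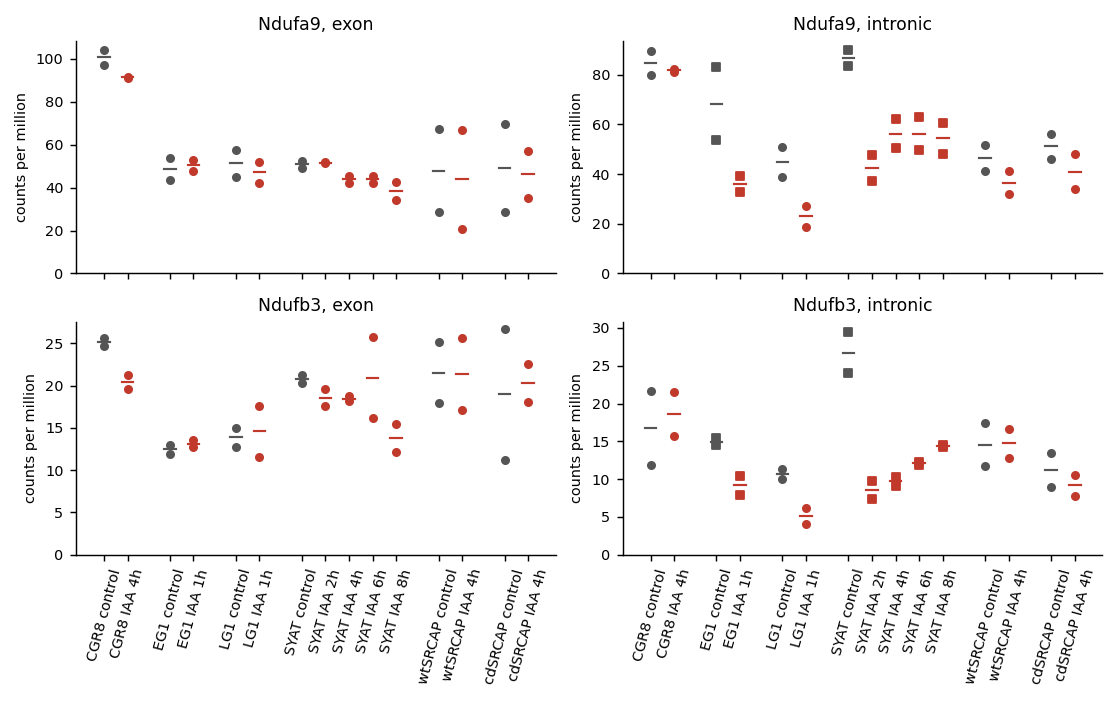
CPM of Ndufa9 and Ndufb3 in exons and in introns, by group and library, with grey for control and red for IAA. In the intronic panels squares show the intron column with the exon column taken off (SYAT time course and EG1) and circles the intron column as deposited. Intronic values with IAA lie below control in the time course, EG1 and LG1, and overlap or lie close to control in CGR8.

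In CGR8 introns 0 of 75 members were called, against 0.022% of all genes. Ndufa9 was at 79.9 and 89.6 CPM in control and at 81.1 and 82.5 with IAA, which overlapped (-0.05, edgeR unadjusted p = 0.77). The lowest p values belonged to Cox7c (1.31) and Atp5g3 (-1.51), with adjusted p values of 0.916 and 0.925 in edgeR. Cox7c had 114 and 166 counts in control and 205 and 720 with IAA, so its value leaned on 1 library. Atp5g3 had 74 and 69 counts in control and 34 and 32 with IAA. Ndufb3 was at 11.9 and 21.7 and at 15.7 and 21.6 CPM, which overlapped as well, with a log2 fold change of 0.14. In the intron column of the time course as deposited, edgeR called 0 of 75 members at each time and in the mean, against 0% of all genes at 2 h and at 4 h, 0.0136% at 6 h, 0.00679% at 8 h and 0.91% in the mean. That column showed Cox6b1, the subunit at the contact between the monomers of the complex IV dimer, at 37.2 and 40.3 CPM in control, 25.1 and 22.3 at 2 h, 12.6 and 15.2 at 4 h, 18.8 and 44.4 at 6 h, and 12.8 and 19.7 at 8 h. All treated libraries but the second at 6 h lay below both controls. The log2 fold change was -1.48 at 4 h (edgeR adjusted p = 0.274) and -1.25 at 8 h (edgeR adjusted p = 0.23), and DESeq2 called both, with adjusted p values of 0.0145 and 0.0421, against 1.83% and 3.22% of all genes.

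With wtSRCAP or cdSRCAP supplied, edgeR called no member in exon reads, with or without the replicate block. Of 81 members, 0 were called after 4 h of IAA in wtSRCAP cells, against 0.00523% of all genes, and 0 in cdSRCAP cells, against 0%. Between the lines 0 were called in control (0% of all genes), 0 with IAA (0.00523%) and 0 for the difference of the IAA effects (0%). DESeq2 with the block called Ndufa2 (0.66, adjusted p = 0.0412) and Ndufa13 (0.55, adjusted p = 0.0356) in wtSRCAP cells, against 4.19% of all genes. In cdSRCAP against wtSRCAP with IAA it called Atp5d (-0.57), Ndufa2 (-0.70) and Ndufa13 (-0.63), against 2.12%. The medians were 0.09 in wtSRCAP and 0.10 in cdSRCAP cells, where 60 members were above 0 and 21 below (47.7% of all genes were below). Without the first wtSRCAP library with IAA the median in wtSRCAP cells was 0.36. That fit had no block and set 1 IAA library numbered 2 against controls of both numbers. Its median therefore also holds the difference between replicate numbers. The replicate number set the level more than the treatment did, since members took 0.427 to 0.504% of exon counts in the 4 libraries numbered 1 and 0.761 to 0.777% in those numbered 2. Ndufa9 showed this, with 28.5 and 67.2 CPM in wtSRCAP control and 20.9 and 67.0 with IAA. Cox7b did so as well, at 24.0, 14.2, 23.9 and 30.7 CPM in the libraries numbered 1 and 59.0, 64.4, 55.5 and 58.1 in those numbered 2.

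Ndufa2 had the lowest p in wtSRCAP cells, with 33.0 and 32.1 CPM in control and 60.6 and 40.1 with IAA (0.63 ± 0.25, SE, edgeR unadjusted p = 0.0326, adjusted p = 0.663). The groups did not overlap, and the high value came from the library with 0.188% mitochondrial transcripts. Without that library Ndufa2 was at 0.32 and Ndufa13 at 0.06, in a fit that set the remaining IAA library against controls of both replicate numbers. Cox6a1 (0.49) and Ndufa13 (0.55) followed, with Ndufa4l2 (-0.84), Uqcrq (-0.35) and Ndufb4 (-0.70) on the lower side. In cdSRCAP cells the lowest p values belonged to Cox7a2l (0.29), Ndufb6 (0.29) and Uqcr10 (0.30), and to Ndufb7 (-0.25), Ndufs5 (-0.88) and Ndufs4 (-0.23). With IAA, cdSRCAP against wtSRCAP gave Uqcrq 0.42, Ndufb4 0.74 and Ndufa12 0.48, and Ndufa2 -0.68 ± 0.25 (edgeR unadjusted p = 0.0234, adjusted p = 0.951), Ndufs7 -0.54 and Cox6a1 -0.49. Without the same library Ndufa2 was at -0.39, Uqcrq at 0.08, Ndufb4 at -0.07, Ndufa12 at -0.10, Ndufs7 at -0.50 and Cox6a1 at -0.18. Here both cdSRCAP libraries were set against the remaining wtSRCAP library, so these values also hold the difference between replicate numbers. In control cells cdSRCAP against wtSRCAP gave Ndufb7 0.28, Cox8b 1.07 and Cox6b2 0.31, and Uqcr11 -0.28 and Uqcrh -0.32.

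In introns edgeR called 0 of 72 members in wtSRCAP cells, against 0.299% of all genes, and 0 in cdSRCAP cells, against 0.236%. Ndufs4, an accessory subunit needed for a stable complex I, had the lowest p. It had 247.1 and 232.5 CPM in wtSRCAP control and 137.5 and 158.1 with IAA, which did not overlap. The log2 fold change was -0.69 ± 0.14 (SE, edgeR adjusted p = 0.108). With the replicate block it was -0.70 and was called (edgeR adjusted p = 0.0153), against 2.3% of all genes, and DESeq2 called it too (adjusted p = 0.0234), against 1.43%. Without the first wtSRCAP library with IAA it was -0.61 ± 0.17 and not called (SE, edgeR adjusted p = 0.334). In cdSRCAP cells it went from 248.8 and 273.6 to 202.5 and 211.5 CPM, also without overlap (-0.34, edgeR unadjusted p = 0.0411, adjusted p = 0.419). The difference between the lines, 0.36, was not past the threshold (edgeR unadjusted p = 0.109). Ndufa9 introns changed by -0.33 in wtSRCAP cells, from 41.3 and 51.5 to 31.9 and 41.2 CPM, and by -0.32 in cdSRCAP cells, from 46.2 and 56.3 to 33.8 and 48.0 CPM. The groups of Ndufa9 met or overlapped in both lines, with unadjusted p values of 0.232 and 0.231 in edgeR. On the higher side Uqcrc1 had the lowest p in wtSRCAP cells, at 17.4 and 22.7 CPM in control and 34.0 and 33.4 with IAA, which did not overlap (0.74 ± 0.25, SE, edgeR adjusted p = 0.265, and 0.72 without the first IAA library). Ndufb3 introns were at 0.03 in wtSRCAP and -0.30 in cdSRCAP cells. The lowest p values in cdSRCAP introns belonged to Cox7b2 (-1.72) and Ndufa4 (0.64), with adjusted p values of 0.265 and 0.449 in edgeR.

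The assembly factors build the complexes and are not part of them, and 2 of them fell in exon reads of the time course. Of 53 of these genes tested in the time course, 41 were below 0 in the mean over time, against 47.9% of all genes, with a median of -0.20, and 2 were called, where 1.21% of all genes were called. Ndufaf4, a complex I assembly factor, had 22.7 and 24.0 CPM in control, 15.8 and 16.4 at 2 h, 13.5 and 14.6 at 4 h, 9.98 and 7.06 at 6 h, and 12.2 and 10.6 at 8 h. Every treated library lay below both controls, with a log2 fold change of -0.94 ± 0.15 in the mean (SE, edgeR adjusted p = 0.0288). It was -1.45 ± 0.20 at 6 h (edgeR adjusted p = 0.0486), and without the second 6 h library this was -1.22 and no longer called. Taco1, which activates translation of the mitochondrial Cox1 message, went from 10.8 and 8.59 CPM in control to 6.22 and 6.15 at 2 h and 4.94 and 3.25 at 8 h (mean -0.96 ± 0.19, SE, edgeR adjusted p = 0.0456). In CGR8 cells Ndufaf4 changed by 0.35 and Taco1 by -0.07, and neither was called. The list also leaned lower in CGR8, with 33 of 53 below 0 and a median of -0.08, but not without the first CGR8 control library, where 21 of 53 were below 0 and the median was 0.05. In wtSRCAP cells Ndufaf4 changed by -0.74 and in cdSRCAP cells by -0.54, with neither called. In EG1 cells 1 of 54 was called, Cox16 (-0.50), against 1.22% of all genes. In LG1 introns 6 of 49 assembly factors were lower and 0 higher, where 2.7% of all genes were lower. They were Ndufaf1, Acad9, Coa3, Coa5, Surf1 and Cmc1.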

How the data were processed

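Nuclear RNA-seq of 30 libraries was analysed. The authors aligned reads to mm10 with STAR, used SAMtools 1.10 and Picard, and counted reads per gene over exons and over introns with featureCounts. The deposited values are raw counts per gene and library. The authors' DESeq2 result files were not used.

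Per table, edgeR 4.0.16 (R 4.3.3) was run with TMM scaling, filterByExpr (minimum count 10, minimum total 15) and the quasi-likelihood test, with Benjamini-Hochberg adjustment over all genes tested. Calls needed a log2 fold change of 0.5 and adjusted p of 0.05 (0.25 and unadjusted 0.05 at 1 h). Exon fits held 80 to 83 members. CPM are TMM-scaled. Alternatives were DESeq2 1.42.0, no filter, the replicate block and leaving out libraries. The script was tested on simulated counts. Members and lists were chosen with earlier results of these data known. Genes named are those called, the 3 lowest p per direction, fixed subunits, isoform pairs and extreme levels. Values of 1 member are not reported here. Same-numbered libraries deviated together in sorted cells (r from 0.685 to 0.843 in exons) and in wtSRCAP and cdSRCAP cells (0.607 to 0.715), so these numbers mark pairs there. In the time course they also deviated together between the control, 2, 4 and 8 h groups (0.493 to 0.751). With the 6 h group they did so little or not at all (-0.00147 to 0.272), and in CGR8 the value was 0.264 (1 pair). The main fits ignore these pairs. Values are from fits without a block unless the block is named.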

Additional observations from a re-analysis of the deposited data

How the results depend on the processing

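No value called in the main fits changed sign. Cox6a1 at 6 h, called at 0.88 without a filter, was negative without the second 6 h library. Some medians and uncalled values also changed sign, among them the 6 h median without the second 6 h library and the CGR8 median without its first control. Calls among members depended on the test as follows. In CGR8 exons 3 members were called with the replicate block, 3 without a filter and 3 in DESeq2 with the block (Cox6a1 and Ndufa2 lower, Cox7b higher each time), and 1 in DESeq2 alone (Cox6a1). In EG1 exons 1 was called without a filter (Cox7b2) and 2 in DESeq2 with the block (Ndufa2, Cox7c). In LG1 exons the block gave 2. At 6 h, 4 were called without a filter (Ndufa2, Atp5e, Atp5h, Cox6a1). With the replicate block and without the second 6 h library, the 6 h median was -0.085. The members called in that fit were Ndufa8 at 4 h (-0.524) and Ndufb3 at 8 h (-0.609). DESeq2 with the block called 2 members in wtSRCAP cells and 3 in cdSRCAP against wtSRCAP with IAA (Atp5d, Ndufa2, Ndufa13). In introns, LG1 gave 26 with the block and 9 with LG1 libraries alone, and EG1 gave 0 with EG1 libraries alone, 3 with the exon column taken off and 9 with the block added. The time course with the exon column taken off had medians of -0.22 at 2 h (-0.221 with the block), -0.242 at 6 h (-0.228) and -0.26 in the mean (-0.276), where 1 member was called (2 with the block). DESeq2 called 1 at 4 h and 1 at 8 h in the deposited intron column, and the block and DESeq2 called 1 each in wtSRCAP introns (Ndufs4). The cause of these changes was not tested. The labels do not say whether the numbers in the time course and CGR8 mark pairs, and the block there changed no other count of members called.

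Leaving out single libraries, members called ranged from 0 to 18 in CGR8 exons (medians -0.096 to 0.076), 0 to 1 at 4 h (-0.109 to -0.003), 0 to 25 at 6 h (-0.062 to 0.28) and 0 to 1 at 8 h (-0.218 to 0.039), with medians of -0.021 to 0.022 at 2 h. The medians of the difference of IAA effects ranged from -0.22 to 0.103 between LG1 and EG1 and from -0.444 to 0.541 between cdSRCAP and wtSRCAP. LG1 introns gave 6 to 16 members (medians -0.385 to -0.175), and the time course with the exon column taken off 0 to 2 (-0.289 to -0.165). Of all values recomputed, 199 medians moved by less than the spread between replicates and 23 by more, and 189 counts of members held within 1.5 times and 33 did not. Of the recomputed values of single called genes, 83 kept their call and 37 lost it. The 2 libraries per group limit every p, and introns are thinner in reads than exons.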

Other observations

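Among 18 regulators of mitochondrial genes, of which 17 were tested in exons of the time course, 0 were called in any exon comparison by edgeR's main fits. Nrf1, the factor whose motif was counted in the members' promoters, had a mean log2 fold change of 0.28 over 2 to 8 h (edgeR unadjusted p = 0.0212, adjusted p = 0.244). Polrmt, the mitochondrial RNA polymerase, was at -0.41 (edgeR unadjusted p = 0.0351), and at -0.53 without the second 6 h library, where it was called (edgeR adjusted p = 0.0293). Ppargc1b, a coactivator of mitochondrial genes, was at 1.21 in wtSRCAP cells with IAA (edgeR adjusted p = 0.622, and 0.00944 with the replicate block).

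The genes encoded by mitochondrial DNA, 7 of 13 of which could be tested, were not called in the mean over the time course, with a median of -0.01 (0.15, with all 7 above 0, without the second 6 h library). In CGR8 cells their median was 0.85, with 5 of 7 higher at an unadjusted p under 0.05 in edgeR and 0 called. With the block 5 were called, and without the first control library the median was 0.46 with 2 called. Of the 7 tested chain genes that fall outside the naming rule, 0 were called in exons. The cytosolic ribosomal protein genes, another broadly expressed group, had 82 of 94 above 0 in that mean with a median of 0.10, and in LG1 introns 2 of 87 were lower and 0 higher.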
